A study of Mus musculus with 78 samples.

Results

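Liver X receptors (LXRs) are nuclear receptors that sense oxysterols, oxidised forms of cholesterol, and switch on genes that move sterol out of cells. The genes described here are the receptor genes Nr1h3 (LXR alpha) and Nr1h2 (LXR beta) and 7 genes known as LXR targets, Abca1, Abcg1, Abcg5, Abcg8, Mylip, Lpcat3 and Srebf1. They were taken by exact symbol from the probe table of an Affymetrix mouse array, and 8 of the 9 were found among 19938 genes with a symbol. No probe set is listed under Nr1h2 in that table, so Nr1h2 is named only. Each of the 8 genes has 1 probe set, which lay above the median of all values (5.54 on the log2 scale) in all 78 arrays.

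The arrays hold liver RNA of 78 female mice in 18 groups. Npc1-/- mice of the line BALB/cNctr-Npc1m1N/J and Npc1+/+ littermates were sampled every 2 weeks from 1 to 11 weeks of age, 4 mice per genotype and age, and the labels place the disease signs of the mutants after 3 weeks. A separate set of Npc1+/+ Balb/cJ females was sampled at 12 weeks, 5 mice per group: untreated, fasted overnight, or given, from 8 weeks on, an antisense oligonucleotide (oligo) against Npc1 or a control oligo. The oligo groups exist with and without the antioxidant N-acetyl-cysteine (NAC). The mutants lack Npc1 in every cell from conception, whereas the oligo lowers Npc1 in adult mice for 4 weeks, and all mice ate normal chow. Livers of the age series were frozen, and those of the 12-week set were frozen or kept in RNAlater, without a record of which. Where nothing else is said, a difference is on the log2 scale with its standard error (SE) from limma, and a gene was called at a Benjamini-Hochberg adjusted p under 0.05 over all genes tested.

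NPC1 is the membrane protein of late endosomes and lysosomes that hands cholesterol on to the rest of the cell, and cholesterol is trapped in these compartments without it. Oxysterols are made from cholesterol that has left the lysosome, and in their presence LXR, paired with a retinoid X receptor, activates its targets. ABCA1 and ABCG1 pass cholesterol to apolipoprotein A-I and to high-density lipoprotein, ABCG5 and ABCG8 act as one pump that secretes sterol into bile, and Srebf1 encodes SREBP-1, which drives fatty acid synthesis. Mylip (also called Idol) encodes a ligase that marks the LDL receptor for breakdown, and Lpcat3 encodes an enzyme that puts polyunsaturated chains into phospholipids.

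The promoters of Abca1 and Srebf1 are well known for an LXR element, a repeat of a hexamer with a spacer. Abcg5 and Abcg8 lie head to head, with a short stretch between the Abcg5 start and 1 of 2 listed Abcg8 starts. As whole loci the 2 overlap on chromosome 17, where Abcg5 reaches to 84683011 and Abcg8 begins at 84676302. The stretch around that repeat is shown, because it lets the results below be read beside letters known for LXR control. The stretch between the pump genes is shown for its place alone, and no LXR element is marked in it. All these stretches come from the RefSeq promoter table of GRCm38.p6, the reference mouse assembly and not the BALB/c genome. That table held 12 windows for 8 of the 9 genes and no window for Abcg1. Capitals mark a match to GGTNA and GGTCA with 5 open letters between them, read on both strands, a pattern chosen with these promoters already seen. It was found in 0.207% of 32851 windows of 300 bases, 250 of them before the start of a gene. The consensus form, AGGTCA and AGGTCA with 4 open letters between them, overlaps it and was found in 0.0152% of the windows and in none of the 12.
Abca1, chr4:53159940-53159969, minus strand: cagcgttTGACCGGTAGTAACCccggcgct
Srebf1, chr11:60210631-60210660, minus strand: acgacagTGACCGCCAGTAACCccagcgcg
Abcg5 to Abcg8, chr17:84683012-84683120, plus strand, 109 bases from the Abcg5 start to 1 of 2 listed Abcg8 starts: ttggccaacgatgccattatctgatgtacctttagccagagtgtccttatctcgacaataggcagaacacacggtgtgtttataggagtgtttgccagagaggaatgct
Both matches read as the reverse complement on the strand of the gene. The match lay 53 to 67 bases before the listed start of Abca1 and 168 to 182 bases before 1 of the 3 listed starts of Srebf1. No other window of these genes held it, which says only that these letters are not in those windows.

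Npc1 itself was checked first. Its level was lower in the mutants at all 6 ages with no overlap, the difference running from -1.72 ± 0.16 at 9 weeks to -1.11 ± 0.16 at 3 weeks. The Npc1 oligo gave -2.97 ± 0.15 without NAC and -2.08 ± 0.15 with it, and NAC under the control oligo gave -1.03 ± 0.15 (limma, adjusted p = 6.05e-05). The signal left in Npc1-/- mice is that of 1 probe set, whose place relative to the mutation is not given. The 8 markers of hepatocytes were high in all groups, with group means of 12.2 to 12.7 on the log2 scale. Genes of another organ stood highest in 3 arrays, skeletal muscle in Npc1-/- mouse 3 at 1 week (mean 8.86) and exocrine pancreas in Npc1+/+ mice 1 and 2 at 3 weeks (8.77 and 8.75). Leaving these 3 out changed no call for the 8 genes. Smaller rises, up to 6.51 for muscle and 6.64 for pancreas over group minima of 4.88 to 5.38, were seen in other arrays, which were left out only 1 at a time. Mouse 3 of the Npc1 oligo with NAC group stood apart from the other 4 of its group in Abcg1 and in macrophage markers, and the oligo results with NAC that it moves most are given with and without it. Because its own Abcg1 value singled it out, the Abcg1 results without it are selected on the outcome and serve as description only.

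In the age series the members did not move as a block. Abcg1 was higher in Npc1-/- liver at 5 of the 6 ages, reaching 4.38-fold at 9 weeks, while Srebf1, Abcg5 and Abcg8 were lower from 7 weeks on in most tests. Abca1 was not called at any age. Mylip was called as higher, and Nr1h3 and Lpcat3 as lower, at 11 weeks alone among the single ages. Of the 8 genes, 0 were called at 1 week (5.69% of the 12638 genes tested were called; 5 of the 8 had an unadjusted limma p under 0.05), 1 at 3 weeks (15.7% of all genes) and 1 at 5 weeks (12.6%). The count was 4 at 7 weeks (25.3%), 4 at 9 weeks (33.2%) and 6 at 11 weeks (39.3%). Averaged over the ages, 6 of 8 were called where 52.6% of all genes were. The median difference of the 8 genes was -0.24 at 1 week and -0.27 at 11 weeks, against -0.01 and -0.02 over all genes tested.

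**Figure D1:**
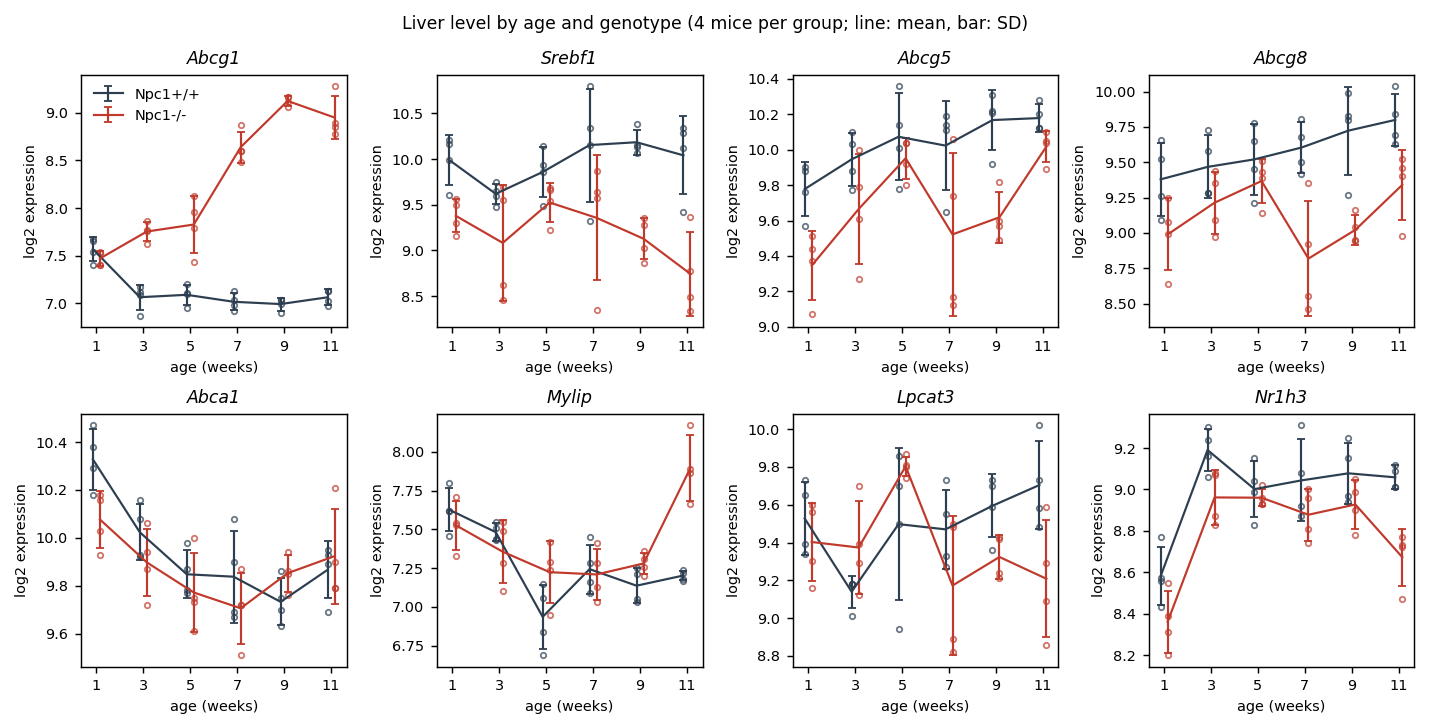
Log2 expression of the 8 genes (vertical axes) against age in weeks (horizontal axes) in Npc1+/+ and Npc1-/- liver; circles are mice, lines join the means of 4 mice and bars are SDs. Abcg1 in Npc1-/- mice climbs from a mean of 7.47 at 1 week to 9.12 at 9 weeks while Npc1+/+ mice lie near 7.0 from 3 weeks on, whereas the 2 genotypes overlap at every age for Abca1.

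Abcg1, the pump that loads cholesterol onto high-density lipoprotein, is strongly expressed in macrophages. At 1 week it was 7.53, 7.40, 7.40 and 7.54 in the 4 Npc1-/- mice and 7.40, 7.54, 7.68 and 7.65 in the Npc1+/+ mice, and the groups overlapped. At 3 weeks the Npc1-/- mice had 7.86, 7.62, 7.77 and 7.76 and the Npc1+/+ mice 7.17, 6.87, 7.09 and 7.12. From that age on, the lowest mutant lay above the highest control at every age. At 5 weeks the mutants had 8.13, 7.79, 7.43 and 7.96, with mouse 3 closest to the controls at 6.95, 7.11, 7.20 and 7.10. At 7 weeks the mutants had 8.87, 8.60, 8.60 and 8.48 and the controls 7.04, 6.98, 6.92 and 7.13. The gap was wider at the later ages. At 9 weeks the values were 9.06, 9.17, 9.11 and 9.16 against 7.04, 7.04, 6.90 and 6.99, and at 11 weeks 8.85, 8.89, 8.78 and 9.28 against 7.13, 7.13, 7.02 and 6.97. Mutant minus control came to 0.69 ± 0.10 at 3 weeks (limma, adjusted p = 2.67e-06) and 0.74 ± 0.10 at 5 weeks. It had grown to 1.62 ± 0.10 by 7 weeks and 2.13 ± 0.10 by 9 weeks (adjusted p = 2.01e-21), and 11-week mice gave 1.89 ± 0.10. The youngest mice gave -0.10 ± 0.10 (adjusted p = 0.71), with a 95% interval of -0.30 to 0.11. The difference itself varied with age (limma, moderated F = 70.76, adjusted p = 6.13e-17), in a test that called 3 of the 8 genes and 27.7% of all genes.

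Markers of macrophages were also higher in Npc1-/- liver, and some of them rose at 1 week, when Abcg1 was not called. Of 20 macrophage genes, 2 were higher and 1 lower in Npc1-/- liver at 1 week, 14 were higher at 3 and at 5 weeks, 19 at 7 weeks and all 20 at 9 and at 11 weeks. Their mean log2 level was 7.63 to 7.93 in the 1-week Npc1-/- mice and 9.00 to 9.23 in the 11-week ones. In Npc1+/+ mice it was 7.67 to 7.81 at 1 week and 6.97 to 7.12 at 11 weeks, and Abcg1 in these mice had a mean of 7.57 ± 0.13 (SD, n = 4) at 1 week and 7.06 ± 0.08 at 11 weeks. The order of the groups was not the same in both: Npc1-/- mice at 1 week had a higher macrophage mean than at 3 weeks (7.79 and 7.72) and a lower Abcg1 mean (7.47 and 7.75). Of 9 genes of lipid-laden macrophages 4 were higher at 1 week (median 0.33) and all 9 at 3 weeks and later. They reached a mean of 9.71 to 9.97 at 11 weeks against 5.92 to 6.13 in Npc1+/+ mice. In Npc1-/- mice their mean was 7.19 at 1 week and 7.87 at 3 weeks, the same direction as Abcg1. From 1 to 11 weeks 5.69%, 15.7%, 12.6%, 25.3%, 33.2% and 39.3% of all genes were called, in either direction. Of 7 genes of resident Kupffer cells, 1 was higher and 2 lower at 1 week, and 2 were higher and 1 lower at 3 weeks. After that 0 were higher, with 4 lower at 5 and at 7 weeks and 5 lower at 9 and at 11 weeks. The part of these cells in the Abcg1 difference was not tested, and in whole liver more cells of a type and more RNA per cell cannot be told apart.

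**Figure D2:**
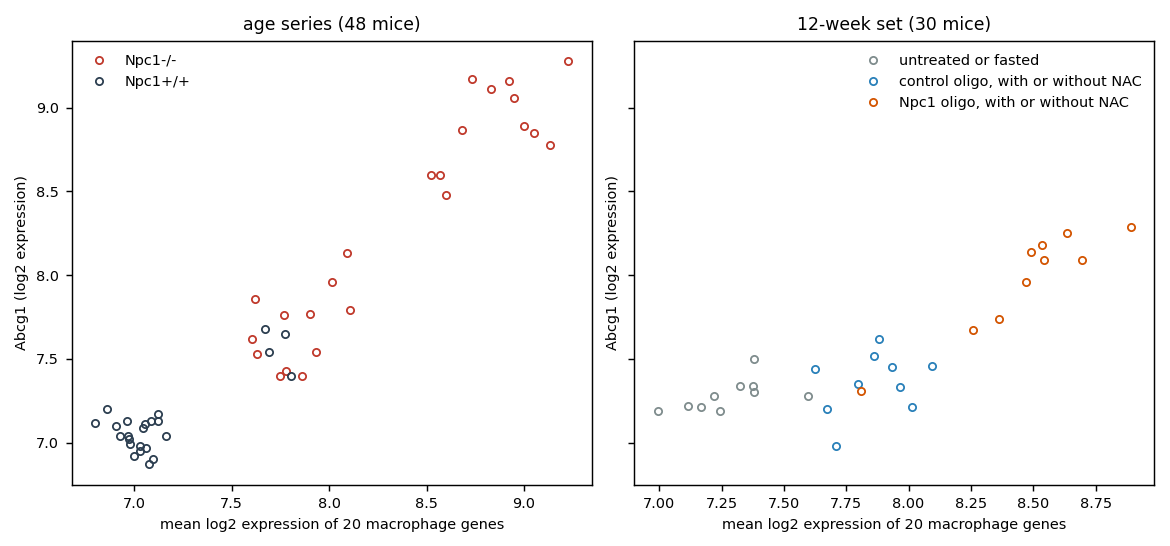
Abcg1 (vertical axes, log2 expression) against the mean log2 expression of 20 macrophage genes (horizontal axes) in each mouse of the age series (left) and of the 12-week set (right). In the age series the mutants of 7 weeks and older lie at the upper right, with the highest values of both, the 1-week mice of both genotypes lie together near 7.4 to 7.7, and 1 mouse given the Npc1 oligo with NAC lies at 7.31 among the control oligo mice.

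Abca1, which starts the making of high-density lipoprotein by lipidating apolipoprotein A-I, did not pass the test at any age. The 4 Npc1-/- mice had 9.94, 9.85, 9.76 and 9.86 at 9 weeks and the Npc1+/+ mice 9.70, 9.86, 9.75 and 9.63. At 11 weeks they had 9.90, 9.79, 9.79 and 10.21 against 9.93, 9.95, 9.69 and 9.89. The genotypes overlapped at each age, and the sign of the difference was not the same throughout. It ran from -0.25 ± 0.10 at 1 week (adjusted p = 0.135) to 0.12 ± 0.10 at 9 weeks (adjusted p = 0.377), and was 0.06 ± 0.10 at 11 weeks, with a 95% interval of -0.14 to 0.26. That last value depended on scaling: it was 0.26 and called after quantile normalization (adjusted p = 0.0228) and -0.03 after centring each array on its median. The average over ages was -0.07 ± 0.04 (adjusted p = 0.156), with a 95% interval of -0.15 to 0.01. It turned to 0.02 after quantile normalization and was called at -0.12 after median centring (adjusted p = 0.00742). Within Npc1+/+ liver Abca1 changed with age (moderated F = 9.26), from means of 10.33 ± 0.13 (SD, n = 4) at 1 week to 9.73 ± 0.10 at 9 weeks.

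Abcg5 and Abcg8, which together form the biliary sterol pump, were lower in Npc1-/- liver. At 9 weeks Abcg5 was 9.49, 9.60, 9.57 and 9.82 in Npc1-/- mice and 10.22, 9.92, 10.21 and 10.31 in Npc1+/+ mice, a difference of -0.55 ± 0.15 (limma, adjusted p = 0.00372). Abcg8 at that age was 9.04, 8.95, 8.94 and 9.16 against 9.99, 9.27, 9.80 and 9.83, a difference of -0.70 ± 0.16 (adjusted p = 0.000759). Neither pair of groups overlapped at 9 weeks. In younger mice no test was passed: Abcg5 differed by -0.43 ± 0.15 at 1 week (adjusted p = 0.082, and 0.0432 when the 2 groups were fitted alone), where its groups were also apart, and Abcg8 by -0.39 ± 0.16 (adjusted p = 0.173). At 7 weeks the mutants spread widely in both genes: Abcg5 was 9.74, 10.06, 9.17 and 9.12 and Abcg8 was 8.92, 9.35, 8.46 and 8.55 in mice 1 to 4, so mice 3 and 4 were the low ones in both. There the difference was -0.50 ± 0.15 for Abcg5 (adjusted p = 0.01), a call lost without either of mice 3 and 4 (adjusted p up to 0.0819) and when the 2 groups were fitted alone (adjusted p = 0.107). For Abcg8 it was -0.79 ± 0.16 (adjusted p = 0.000228), and this call held.

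At 11 weeks Abcg8 was called and Abcg5 was not, and the difference between the pair was not tested. Abcg5 was then 10.10, 10.04, 10.05 and 9.89 in Npc1-/- mice and 10.20, 10.28, 10.12 and 10.12 in Npc1+/+ mice, and the difference of -0.16 ± 0.15 was not called (adjusted p = 0.432; 0.07 after quantile normalization), although the groups did not overlap. Abcg8 was 9.52, 9.40, 9.46 and 8.98 against 9.63, 10.04, 9.84 and 9.69, a difference of -0.46 ± 0.16 (adjusted p = 0.0224). That call was lost without Npc1-/- mouse 4 or Npc1+/+ mouse 2 (adjusted p up to 0.124) and after quantile normalization (adjusted p = 0.115). Averaged over the ages the difference was -0.34 ± 0.06 for Abcg5 (adjusted p = 7.74e-06) and -0.46 ± 0.07 for Abcg8 (adjusted p = 1.58e-07), and both calls held with each mouse left out. The difference did not pass the test for variation with age in either gene (adjusted p = 0.375 and 0.153). Hepatocytes make this pump, and of their 8 marker genes 5 were lower at 3 weeks, 1 each at 5 and at 7 weeks, 0 at 9 weeks and 3 at 11 weeks. Of all genes 15.7%, 12.6%, 25.3%, 33.2% and 39.3% were called at these ages, in either direction.

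Srebf1, the lipogenic regulator among the LXR targets, was lower in Npc1-/- liver in the mean at all ages and was called from 7 weeks on. At 1 week the mutants had 9.30, 9.50, 9.16 and 9.56 and the controls 9.61, 9.99, 10.21 and 10.16. At 9 weeks they had 8.86, 9.35, 9.03 and 9.28 against 10.13, 10.15, 10.38 and 10.07, and at 11 weeks 9.37, 8.77, 8.49 and 8.34 against 10.34, 10.29, 10.12 and 9.42. The genotypes were apart at these 3 ages and overlapped at the other ages. Mutant minus control came to -0.61 ± 0.27 at 1 week (adjusted p = 0.19; called with an adjusted p of 0.017 when the 2 groups were fitted alone), -0.54 ± 0.27 at 3 weeks and -0.33 ± 0.27 at 5 weeks, which were not called. It was -0.80 ± 0.27 at 7 weeks (limma, adjusted p = 0.022), -1.06 ± 0.27 at 9 weeks (adjusted p = 0.00168) and -1.30 ± 0.27 at 11 weeks (adjusted p = 9.29e-05). The 7-week call was lost without Npc1-/- mouse 4, at 8.35, or without Npc1+/+ mouse 1 or 3 (adjusted p up to 0.21), and when the 2 groups were fitted alone (adjusted p = 0.128). Averaged over the ages the difference was -0.77 ± 0.11, or 1.71-fold lower, and it was not called as varying with age (adjusted p = 0.26). The probe set does not tell apart the transcripts that begin at the 3 listed starts.

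Mylip, which lowers the LDL receptor, and Lpcat3, the phospholipid remodelling enzyme, were each called at 11 weeks alone of the 6 ages, in opposite directions. At 11 weeks Mylip was 7.66, 7.86, 7.89 and 8.17 in Npc1-/- mice and 7.24, 7.18, 7.22 and 7.17 in Npc1+/+ mice, a difference of 0.69 ± 0.11 (limma, adjusted p = 1.05e-06). The groups were apart at 11 weeks and overlapped at all younger ages, and the difference varied with age (moderated F = 8.27, adjusted p = 0.00021). At 9 weeks it was 0.14 ± 0.11 (adjusted p = 0.333). At 5 weeks it was 0.29 ± 0.11 (adjusted p = 0.0752), and it was called there without Npc1-/- mouse 3 or Npc1+/+ mouse 2 (adjusted p down to 0.0202). The average over ages, 0.14 ± 0.04 (adjusted p = 0.00576), was not called after each array was centred on its median (0.09, adjusted p = 0.0824). Lpcat3 at 11 weeks was 9.59, 9.29, 9.09 and 8.86 in Npc1-/- mice and 10.02, 9.73, 9.48 and 9.58 in Npc1+/+ mice, and the groups overlapped. The difference of -0.50 ± 0.16 (adjusted p = 0.0114) was not called without Npc1-/- mouse 4 or Npc1+/+ mouse 1 (adjusted p up to 0.0729). At 5 weeks it had the other sign, 0.31 ± 0.16 (adjusted p = 0.238), and its variation with age was called (moderated F = 3.90, adjusted p = 0.0242).

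Nr1h3, the LXR gene most active in liver, was lower in the youngest mice of both genotypes and was called between genotypes at 11 weeks. At 1 week it was 8.31, 8.39, 8.20 and 8.55 in Npc1-/- mice and 8.56, 8.43, 8.77 and 8.57 in Npc1+/+ mice, and at 3 weeks 9.07, 8.83, 8.87 and 9.08 against 9.24, 9.30, 9.16 and 9.06. Each mouse at 3 weeks lay above each 1-week mouse. At 11 weeks the mutants had 8.77, 8.72, 8.47 and 8.73 and the controls 9.01, 9.09, 9.12 and 9.01, and the groups did not overlap. The difference there was -0.39 ± 0.09 (limma, adjusted p = 0.00082), and it held with each of the 8 mice left out. At the other ages it lay between -0.23 and -0.04 and was not called, and its variation with age did not pass the test (adjusted p = 0.362). At 3 weeks the difference was called after median centring (-0.28, limma, adjusted p = 0.0485). Averaged over ages it was -0.20 ± 0.04 (adjusted p = 2.36e-05).

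In Npc1+/+ liver the share of these genes called as differing between ages was near that of all genes. In Npc1+/+ mice the moderated F test over the 6 ages called 4 of 8 genes, Nr1h3, Abca1, Abcg1 and Mylip, where 53.3% of all genes were called. In Npc1-/- mice it called 7 of 8, all but Srebf1, where 55.6% of all genes were called. After median centring 7 of 8 were called in Npc1+/+ mice, and Abca1 was not called in Npc1-/- mice (adjusted p = 0.057). Abca1 and Abcg8 each lost the call in Npc1-/- mice in some fits with 1 mouse left out (adjusted p up to 0.0749 and 0.0716). Mylip in Npc1+/+ mice had a mean of 7.63 ± 0.14 (SD, n = 4) at 1 week and its lowest, 6.94 ± 0.21, at 5 weeks.

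Knockdown of Npc1 in adult mice lowered Srebf1, the biliary pump genes, Lpcat3 and Abca1 and raised Abcg1 and Mylip. Against the control oligo and without NAC, 7 of the 8 genes were called, where 22.6% of the 11900 genes tested were. Nr1h3 was the exception, at 0.09 ± 0.06 (limma, adjusted p = 0.3; 95% interval -0.04 to 0.22). With NAC given to both groups, 5 of 8 were called, where 25.7% of all genes were: Abcg1 higher, and Abca1, Abcg5, Abcg8 and Srebf1 lower. The median difference of the 8 genes was -0.28 without NAC and -0.16 with it, against 0.02 and -0.01 over all genes. Both comparisons have their own control mice.

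**Figure D3:**
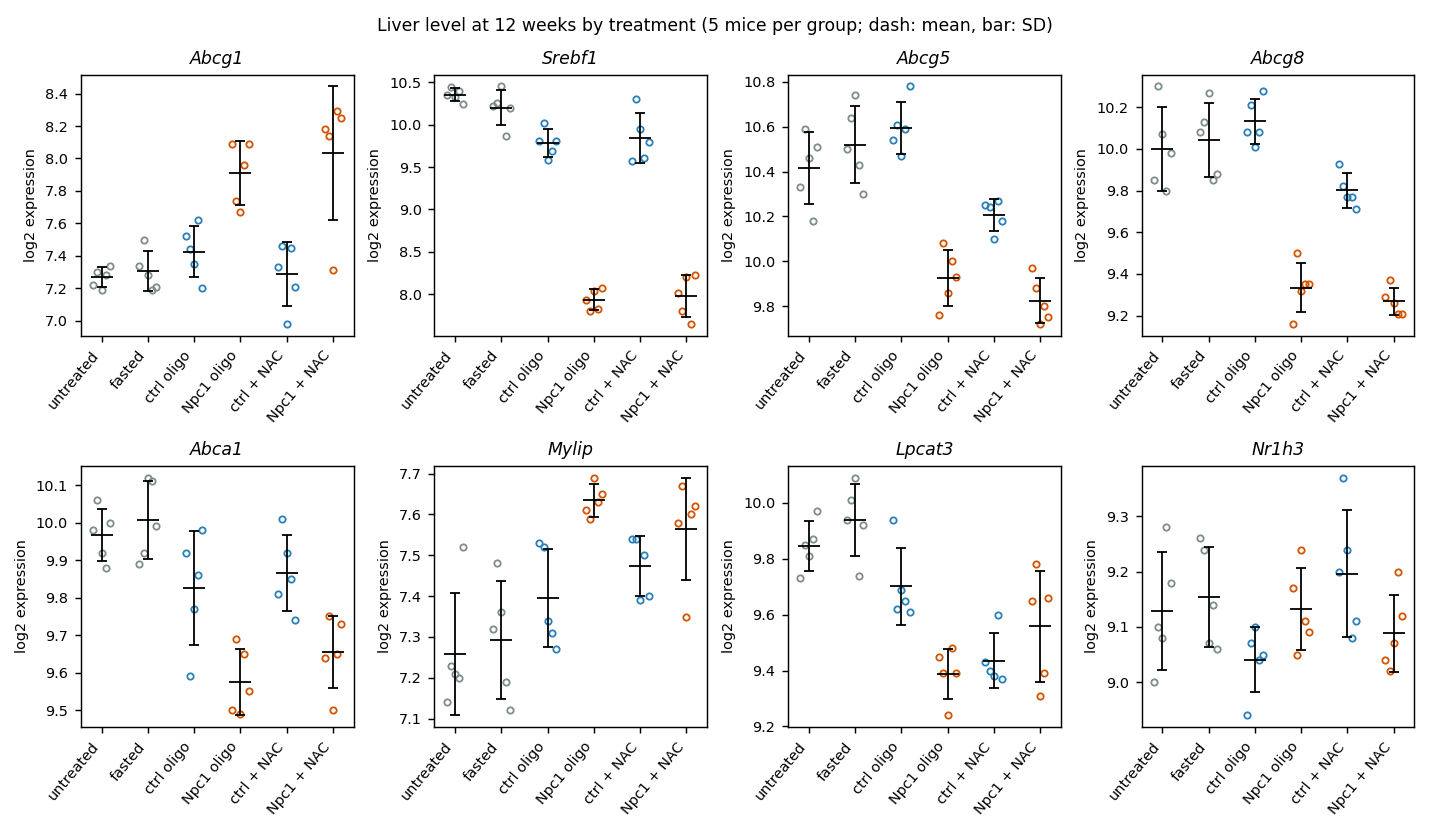
Log2 expression of the 8 genes (vertical axes) in the 6 groups of 12-week mice (horizontal axes; ctrl is the control oligo); circles are mice, dashes are the means of 5 mice and bars are SDs. Srebf1 lies between 7.65 and 8.23 in all 10 mice given the Npc1 oligo and above 9.5 in the other 20, and Abcg5 and Abcg8 step down in the control oligo mice given NAC.

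Srebf1 had the largest difference of the 8 genes under the oligo. It was 7.93, 7.80, 8.04, 7.83 and 8.08 in mice given the Npc1 oligo and 9.81, 10.02, 9.58, 9.69 and 9.81 with the control oligo. With NAC it was 8.02, 7.80, 8.20, 7.65 and 8.23 against 9.57, 10.30, 9.95, 9.61 and 9.80. All 10 mice given the Npc1 oligo lay below all others of the set. The difference was -1.85 ± 0.12 without NAC (limma, adjusted p = 2.04e-12), or 3.60-fold lower, and -1.87 ± 0.12 with NAC (adjusted p = 4.59e-12). Over the 18 groups these were the lowest means of Srebf1, 7.94 ± 0.12 (SD, n = 5) and 7.98 ± 0.25, and their mice did not overlap with the next group in order, the 11-week mutants at 8.74 ± 0.46.

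The biliary pump genes came down with the Npc1 oligo too. Abcg5 was 9.76, 10.08, 9.86, 10.00 and 9.93 with the Npc1 oligo and 10.54, 10.61, 10.47, 10.59 and 10.78 with the control oligo, a difference of -0.67 ± 0.08 (limma, adjusted p = 5.57e-07). Abcg8 was 9.16, 9.50, 9.32, 9.35 and 9.35 against 10.08, 10.21, 10.01, 10.08 and 10.28, a difference of -0.80 ± 0.08 (adjusted p = 4.65e-08). With NAC Abcg5 was 9.97, 9.88, 9.72, 9.80 and 9.75 under the Npc1 oligo, and Abcg8 was 9.29, 9.37, 9.26, 9.21 and 9.21. The groups were apart in both genes, with and without NAC. With NAC the differences were -0.38 ± 0.08 for Abcg5 (adjusted p = 0.000658) and -0.53 ± 0.08 for Abcg8 (adjusted p = 1.71e-05). Hepatocyte markers were lower for 1 of 8 genes without NAC and for 5 of 8 with it. Of all genes 22.6% and 25.7% were called in these comparisons, in either direction.

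The cholesterol pumps Abca1 and Abcg1 moved in opposite directions with the Npc1 oligo. Abca1 was 9.50, 9.69, 9.49, 9.65 and 9.55 against 9.92, 9.59, 9.77, 9.86 and 9.98 with the control oligo, a difference of -0.25 ± 0.07 (limma, adjusted p = 0.00902). With NAC it was -0.21 ± 0.07 (adjusted p = 0.0253), a call lost without any 1 of 3 mice (adjusted p up to 0.0861; control oligo with NAC mice 2 and 3, Npc1 oligo with NAC mouse 3), after quantile normalization (adjusted p = 0.0764) and when the 2 groups were fitted alone (adjusted p = 0.0777). Abcg1 was 8.09, 7.74, 7.67, 7.96 and 8.09 with the Npc1 oligo and 7.52, 7.44, 7.35, 7.62 and 7.20 with the control oligo, a difference of 0.49 ± 0.13 (adjusted p = 0.00656). With NAC it was 8.18, 8.14, 7.31, 8.29 and 8.25 against 7.33, 7.46, 6.98, 7.45 and 7.21. Mouse 3 lay within the control group, and the other 4 lay above it. The difference was 0.75 ± 0.13 (adjusted p = 5.62e-05) with that mouse and 0.93 without it (adjusted p = 1.44e-08). Leaving out the lowest value of the group raises the difference by itself.

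Mouse 3 of that group was also the one with few macrophage transcripts. Its mean over the 20 macrophage genes was 7.81, against 8.49 to 8.89 in the other 4, and over the 9 genes of lipid-laden macrophages 6.63, against 8.58 to 8.86. Its Npc1 level of 7.26 lay among the others, 6.68 to 7.51. Of 18 macrophage genes tested, 13 were higher with the Npc1 oligo without NAC (22.6% of all genes called) and 12 with NAC (25.7%). The mean over all 20 ran from 8.26 to 8.69 in mice given the Npc1 oligo without NAC and from 7.63 to 7.88 with the control oligo. Their part in the Abcg1 difference was not tested.

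Mylip and Lpcat3 showed small differences under the oligo. Mylip was 7.61, 7.59, 7.69, 7.63 and 7.65 with the Npc1 oligo and 7.53, 7.52, 7.34, 7.31 and 7.27 with the control oligo, so the groups were just apart. The difference of 0.24 ± 0.08 (limma, adjusted p = 0.0202) was not called without control oligo mouse 4 or 5 (adjusted p up to 0.0592) or after quantile normalization (adjusted p = 0.106). With NAC it was 0.09 ± 0.08 (adjusted p = 0.426), with mouse 3 again the lowest at 7.35, and 0.14 without that mouse (adjusted p = 0.159). Lpcat3 was 9.45, 9.39, 9.24, 9.48 and 9.39 with the Npc1 oligo and 9.94, 9.62, 9.69, 9.65 and 9.61 with the control oligo, a difference of -0.31 ± 0.08 (adjusted p = 0.00569). With NAC it was 9.65, 9.78, 9.31, 9.39 and 9.66 with the Npc1 oligo and 9.43, 9.40, 9.38, 9.60 and 9.37 with the control oligo. These groups overlapped, and their difference was 0.12 ± 0.08 (adjusted p = 0.299; 95% interval -0.04 to 0.29), or 0.18 without mouse 3 (adjusted p = 0.0906).

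NAC given with the control oligo lowered both genes of the biliary pump. Abcg5 was 10.25, 10.24, 10.10, 10.27 and 10.18, a difference of -0.39 ± 0.08 (limma, adjusted p = 0.00289), and Abcg8 was 9.93, 9.82, 9.77, 9.77 and 9.71, a difference of -0.33 ± 0.08 (adjusted p = 0.0134). These mice did not overlap with the control oligo mice without NAC in either gene, and these calls held with each mouse left out. These 2 genes and Lpcat3 made 3 of 8 called, where 8.5% of all genes were. Lpcat3 was 9.43, 9.40, 9.38, 9.60 and 9.37 with NAC, a difference of -0.27 ± 0.08 (adjusted p = 0.0395) that was lost in 7 of 10 fits with 1 mouse left out (adjusted p up to 0.122), with no filter (adjusted p = 0.0604) and when the 2 groups were fitted alone (adjusted p = 0.0681). Npc1 was lower with NAC in the same mice, as given above, and 1 of 18 macrophage genes was higher.

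Under the Npc1 oligo NAC changed 0 of the 8 genes (limma; 7.15% of all genes were called, and 1 of the 8 had an unadjusted p under 0.05). Without mouse 3 of the NAC group Abcg1 was called, at 0.30 (adjusted p = 0.0465), against 0.12 ± 0.13 with it (adjusted p = 0.661). That mouse was singled out by its low Abcg1 value, so the Abcg1 fits without it, here and for the interaction, are no separate support. The interaction, the oligo effect with NAC minus that without, was called for Lpcat3 alone of the 8 (4.83% of all genes). It was 0.44 ± 0.12 (adjusted p = 0.0257). It missed the threshold without control oligo mouse 1, at 9.94 the highest of its group, or without Npc1 oligo with NAC mouse 1 (adjusted p up to 0.0544), and when the 4 groups were fitted alone (adjusted p = 0.0671). For Abcg5 and Abcg8 the interaction was 0.29 ± 0.12 and 0.27 ± 0.12 (adjusted p = 0.147 and 0.194), and for Srebf1 -0.02 ± 0.17, with a 95% interval of -0.36 to 0.32. Abcg1 had 0.26 ± 0.18 with mouse 3 and 0.44 without it (adjusted p = 0.0497). Npc1 itself had an interaction of 0.88 ± 0.21 (limma, adjusted p = 0.0145), from oligo differences of -2.97 without NAC and -2.08 with it. The oligo difference in Npc1 was thus not of the same size with and without NAC. With the Npc1 oligo the Npc1 means were 7.25 without NAC and 7.11 with it (-0.15 ± 0.15, limma, adjusted p = 0.645). With the control oligo they were 10.22 without NAC and 9.19 with it.

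Fasting and the control oligo were compared with untreated mice, which both comparisons share. Fasting overnight called 0 of the 8 genes (limma; 0.529% of all genes were called, and 0 of the 8 had an unadjusted p under 0.05). Srebf1 was 10.22, 10.25, 10.45, 9.87 and 10.20 in fasted mice and 10.35, 10.44, 10.33, 10.40 and 10.24 in untreated ones, with a 95% interval of the difference from -0.40 to 0.09. With the control oligo Srebf1 was lower, a difference of -0.57 ± 0.12 (adjusted p = 0.000748), and every control oligo mouse lay below every untreated one. It was the only one of the 8 called, where 26.3% of all genes were. Mylip was called too after quantile normalization (0.26, adjusted p = 0.00979) and without untreated mouse 5 (adjusted p = 0.0403). The control oligo also came with 10 of 18 macrophage genes higher.

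Lifelong loss was set against adult knockdown by subtracting the oligo effect from the genotype effect at 11 weeks, in a fit of all 78 arrays. The 2 effects come from mice of different age, strain source and storage, which cannot be told apart here from the kind of loss. Of the 8 genes, 5 were called, where 27.7% of the 12748 genes tested were. The median difference of the 8 was 0.40 and that of all genes -0.02, which moved to -0.13 when each array was centred on its median. With that centring 3 of 8 were called.

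Abcg1 stood highest, at 1.40 ± 0.17 (limma, adjusted p = 2.99e-10), its effect being 1.89 at 11 weeks and 0.49 under the oligo. Abcg5 gave 0.51 ± 0.18 (adjusted p = 0.024; 0.40 and adjusted p = 0.0513 after median centring), from effects of -0.16 and -0.67. Mylip gave 0.45 ± 0.13 (adjusted p = 0.00685), from 0.69 and 0.24. Nr1h3 was the one called as lower in lifelong loss, at -0.48 ± 0.11 (adjusted p = 0.000623), from -0.39 and 0.09. Abca1 gave 0.31 ± 0.12 (adjusted p = 0.0476), a call lost in 10 of 18 fits with 1 mouse left out and in 4 other alternatives. Srebf1, with -1.30 and -1.85, differed by 0.55 ± 0.31, which was not called (adjusted p = 0.185; 95% interval -0.06 to 1.16). Abcg8 at 0.34 ± 0.19 (adjusted p = 0.191) and Lpcat3 at -0.18 ± 0.19 (adjusted p = 0.505) were not called either.

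**Figure D4:**
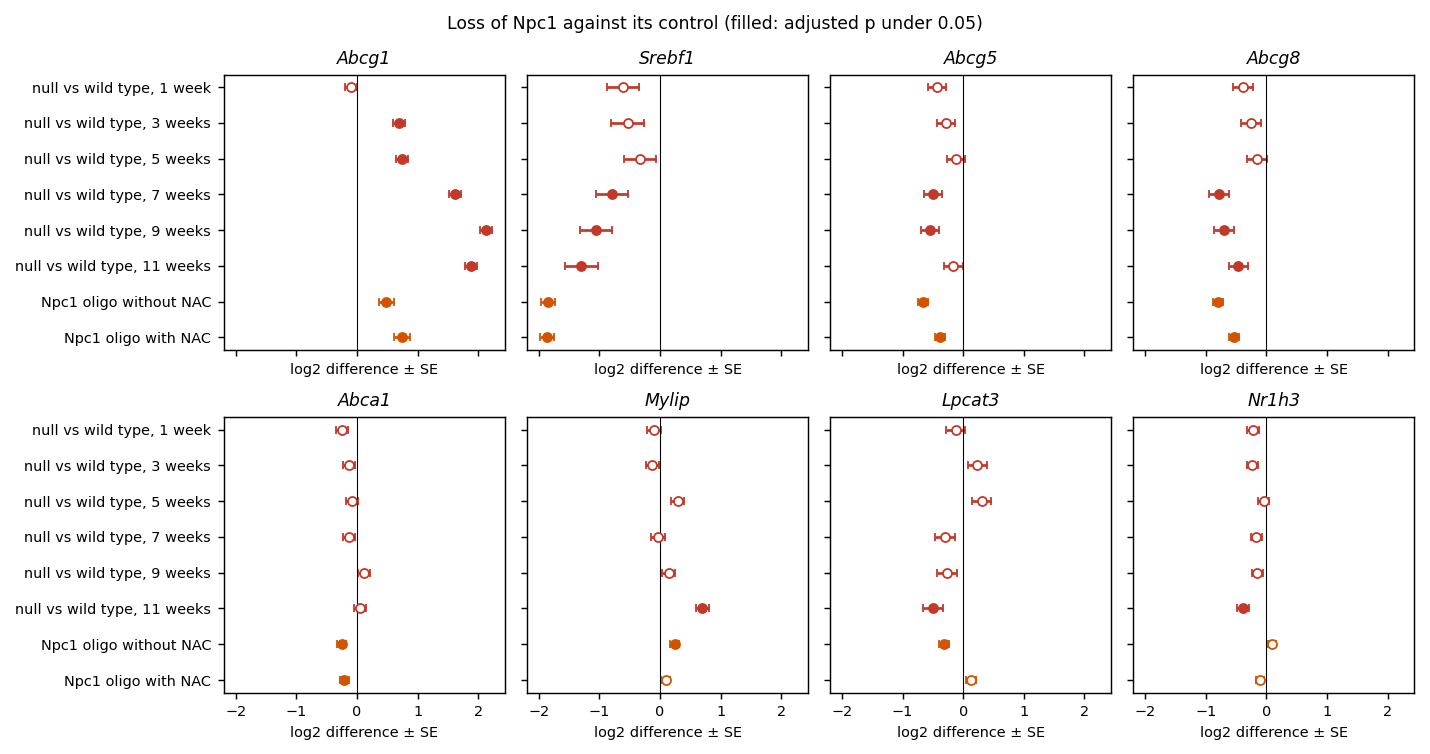
Log2 difference of each gene (horizontal axes, ± SE) between Npc1-/- and Npc1+/+ mice at 6 ages and between the Npc1 oligo and the control oligo without and with NAC (vertical axes); filled points have an adjusted p under 0.05. Srebf1 is furthest from 0 under the oligo (-1.85 and -1.87), Abcg1 at 9 weeks (2.13), and Abca1 is called under the oligo only.

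Other genes of the LXR pathway were read from 5 lists. Their counts stand against all genes called in either direction, which made up 12.6% in 5-week mice, 39.3% in 11-week mice, 22.6% with the Npc1 oligo and 25.7% with that oligo and NAC. LXR binds DNA with retinoid X receptors and works through coactivators, and of 10 such partners and cofactors 4 were lower at 11 weeks and 0 higher (median -0.06, all genes -0.02), a share near that of all genes. Among them Ttc39b, known as a protein that lowers LXR, was at -1.03 ± 0.17 (limma, adjusted p = 1.95e-06), Rxrb at -0.40 and Rxra at -0.34. With the Npc1 oligo 2 of 10 were higher, Ep300 at 0.28 and Ncoa3 at 0.26, and 0 lower, again near the share of all genes. With NAC in both groups Ttc39b was at -0.99 ± 0.10, the 1 gene of the list called. Its own interaction of oligo and NAC was -1.05 ± 0.14 (adjusted p = 3.75e-05).

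Enzymes that make or clear oxysterols, the ligands of LXR, changed in both directions. Of 8 tested, 1 was higher and 5 lower at 11 weeks (median -0.66, all genes -0.02). Cyp7b1, which hydroxylates oxysterols, was at -2.64 ± 0.18 (limma, adjusted p = 4.15e-16) and Cyp39a1, the hydroxylase of 24-hydroxycholesterol, at 1.70 ± 0.21. With the Npc1 oligo 2 were higher and 3 lower (median -0.23), again with Cyp7b1 at -1.05 ± 0.17 and Cyp39a1 at 0.92 ± 0.13.

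Targets in lipoprotein and membrane traffic were led by genes that macrophages also express. Of 13, 5 were higher and 4 lower at 11 weeks (median 0.14, all genes -0.02). Lpl, lipoprotein lipase, was at 4.66 ± 0.21 (limma, adjusted p = 8.39e-23), Mertk, a receptor for dying cells, at 2.06 ± 0.13 and Pltp, the phospholipid transfer protein, at 1.74 ± 0.13, while Abcb11, the bile salt pump, was at -1.22 ± 0.16. Under the Npc1 oligo 5 were higher and 1 lower (median 0.13), with Pltp at 0.92 ± 0.14, Lpl at 0.80 ± 0.16, Mertk at 0.54 ± 0.10 and Abcb11 at -0.45 ± 0.10. Macrophage markers were higher in the same comparisons, and their part was not tested.

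The lipogenic genes downstream of LXR and SREBP-1 rose in the mutant at 5 weeks and fell at 11 weeks. At 5 weeks 8 of 10 were higher in Npc1-/- liver and 0 lower (median 0.89, all genes 0.01), with Scd1 at 1.38 ± 0.27 and Scd2, both stearoyl-CoA desaturases, at 1.21 ± 0.18, while Srebf1 was at -0.33. At 11 weeks 1 was higher and 7 lower (median -1.01), with Me1 at -1.65 ± 0.18, Elovl6 at -1.61 ± 0.29 and Fasn, fatty acid synthase, at -1.54 ± 0.28, and Srebf1 at -1.30. The Npc1 oligo lowered 7 of 10 (median -0.48), with Scd1 at -1.38 ± 0.26 and Fasn at -1.15 ± 0.17. The control oligo against untreated mice lowered 9 of 10 (median -0.71, all genes -0.07), where 26.3% of all genes were called.

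Genes of cholesterol synthesis and sterol sensing, driven by SREBP-2, went up early in the mutant and down with the oligo. Of 11, 6, 9 and 8 were higher at 1, 3 and 5 weeks with 0 lower (5.69%, 15.7% and 12.6% of all genes were called), and 0 were higher and 3 lower at 11 weeks. Sqle, squalene epoxidase, was at 3.17 ± 0.36 at 3 weeks (limma, adjusted p = 1.12e-08). The Npc1 oligo lowered 7 of 11 (median -0.47) and raised 0, with Fdps at -1.18 ± 0.18 and Insig1 at -0.99 ± 0.14, and with NAC in both groups it lowered 9 of 11 (median -0.86). NAC itself raised 6 of 11 under the control oligo (median 0.51, where 8.5% of all genes were called), and the interaction of oligo and NAC, with a median of -0.35 (all genes -0.03), was not called for these 11 genes.

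Across the 18 groups the means of the 8 genes fell in different orders. Abcg1 was lowest in Npc1+/+ mice at 9 weeks (6.99 ± 0.07, SD, n = 4) and highest in Npc1-/- mice at 9 weeks (9.12 ± 0.05). The groups next to each other in that order overlapped except between Npc1 oligo with NAC and the 7-week mutants. Srebf1 ran from the Npc1 oligo (7.94 ± 0.12) to untreated mice (10.35 ± 0.08). Abcg5 and Abcg8 were both highest with the control oligo, at 10.60 ± 0.12 and 10.13 ± 0.11, and lowest in mutants, at 1 week for Abcg5 (9.35 ± 0.20) and at 7 weeks for Abcg8 (8.82 ± 0.40). Abca1 was lowest with the Npc1 oligo (9.57 ± 0.09) and highest in Npc1+/+ mice at 1 week (10.33 ± 0.13). Mylip was highest in 11-week mutants (7.90 ± 0.21), Lpcat3 in fasted mice (9.94 ± 0.13) and Nr1h3 with the control oligo and NAC (9.20 ± 0.12). In these 6 genes no neighbours in the order were apart.

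The genes most like each member were taken as those with the highest Pearson r over the 18 group means, among 12748 genes, as a description of means that share mice and arrays. For Abcg5 the first was Abcg8 and the reverse held too (r = 0.96). For Abcg1 they were Capg (0.99), Il7r (0.98) and Itgb2 (0.98). For Srebf1 the first was Npc1 (0.91), followed by Fzd8 (0.90) and Hsd3b2 (0.89). Nr1h3 had Kmo (0.95), Abca1 Pmpca (0.93), Lpcat3 Hmgb1 (0.88) and Mylip Adm (0.86). Among the 8 genes themselves, Abcg1 had r = -0.62 with Srebf1 and -0.64 with Abcg8, and Abca1 had r = -0.21 with Abcg1 and 0.49 with Srebf1.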

How the data were processed

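Liver RNA of 78 mice, 1 array each, had been measured on an Affymetrix array, and the values are log2 expression for 35556 probe sets in the table the authors deposited. The submitters' processing notes name RMA and Partek 6.5 but not what each did. The genome build is not given in the sources used here. Deposited log2 array medians ran from 5.35 to 5.65, no 2 columns were identical, and for arrays the number of mice limits the precision. No raw intensities, slides or scan batches were analysed here.

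Probe sets with exactly 1 symbol were used, and a gene is its probe set with the highest mean. A gene was tested when 4 or more arrays exceeded 5.54, the overall median. limma 3.58.1 in R 4.3.3 (lmFit, 1 mean per group, eBayes, two-sided, Benjamini-Hochberg) was fitted to the 48 arrays of the age series, the 30 of the 12-week set and all 78. The code was tested on simulated data. The members, gene lists and tests were chosen with earlier results of these data known. Genes named are the members, Npc1, up to 4 called genes per list and comparison with the largest change, and the 3 genes most like each member. Alternatives were other filters, quantile normalization, median centring, the mean of probe sets, a trend with robust prior, the replicate number as a block, only the groups compared, and leaving out arrays.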

Additional observations from a re-analysis of the deposited data

Results flagged for a closer look

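Each of the 8 genes was examined in each of the 18 groups of 4 or 5 mice, which gave 144 sets of values that share mice and are not independent. In 8 of these sets 1 mouse lay far from the rest by Dixon's criterion, which chance meets in about 1 in 20 sets. These were Nr1h3 in Npc1-/- mouse 3 at 11 weeks (8.47), Abcg5 in Npc1+/+ mouse 2 at 7 weeks (9.65), Lpcat3 in Npc1+/+ mouse 4 at 3 weeks (9.01), in control oligo mouse 1 (9.94) and in control oligo with NAC mouse 4 (9.60), and Mylip in untreated mouse 5 (7.52). Npc1 oligo with NAC mouse 3 was the lowest of its group in both Abcg1 (7.31) and Mylip (7.35).

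The difference between genotypes varied with age for Abcg1 (moderated F = 70.76), Mylip (8.27) and Lpcat3 (3.90). The oligo effect differed with NAC for Lpcat3, by 0.44 in log2. Lifelong loss at 11 weeks and adult knockdown differed for Abcg1 by 1.40, Abcg5 by 0.51, Mylip by 0.45, Abca1 by 0.31 and Nr1h3 by -0.48.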

How the results depend on the processing

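The count of called genes among the 8 moved by over 1.5 times as follows. Quantile normalization took control oligo against untreated from 1 to 2. Median centring took 1 week from 0 to 1, 3 weeks from 1 to 2, age in Npc1+/+ mice from 4 to 7 and lifelong loss against knockdown from 5 to 3. Fitting only the groups compared took 1 week to 2, 7 weeks from 4 to 2 and the interaction from 1 to 0. With 1 mouse left out, the count ran from 0 to 1 at 1 week (1 without Npc1+/+ mouse 1), 1 to 2 at 5 weeks (2 without Npc1-/- mouse 3 or Npc1+/+ mouse 2), 2 to 4 at 7 weeks (2 without Npc1-/- mouse 4), 0 to 1 for NAC under the Npc1 oligo, 0 to 2 for the interaction and 1 to 2 for control oligo against untreated. Within 1.5 times, it ran from 4 to 6 at 11 weeks (4 without Npc1-/- mouse 4), 3 to 4 for genotype by age, 4 to 5 for age in Npc1+/+ and 6 to 8 for age in Npc1-/- mice, 6 to 7 for the oligo without and 4 to 5 with NAC, 2 to 3 for NAC under the control oligo and 4 to 5 for lifelong loss against knockdown. Among single-gene values under the 10 other alternatives, 1276 kept direction and side of the threshold, 12 gained a call, 17 lost one and 7 changed sign. Only quantile normalization, median centring and leaving out arrays could change a log2 difference of these genes. Under the other alternatives the estimate stayed as it was and only its adjusted p could move, so the kept direction was fixed in advance there. The cause of the changes was not tested.

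No called value changed sign. Uncalled ones that did were, after quantile normalization, Abcg5 at 11 weeks (0.0731), Abca1 averaged over ages (0.02), Mylip with NAC under the control oligo (-0.0004), Srebf1 for the interaction (0.0298) and Nr1h3 for control oligo against untreated (0.0039), after median centring Abca1 at 11 weeks (-0.0302), and without 2 Npc1+/+ mice numbered apart Lpcat3 at 1 week (0.0375). With 1 mouse left out the ranges that crossed 0 were Nr1h3 at 5 weeks (-0.10 to 0.0074), Mylip at 7 weeks (-0.10 to 0.0341), Abca1 at 11 weeks (-0.0386 to 0.10), Abca1 (-0.0191 to 0.0786) and Srebf1 (-0.0497 to 0.13) for NAC under the control oligo, and Srebf1 for NAC under the Npc1 oligo (-0.0177 to 0.13) and the interaction (-0.0886 to 0.0937). For fasting they were Nr1h3 (-0.0061 to 0.0645), Abcg1 (-0.0105 to 0.0654), Abcg8 (-0.0147 to 0.12) and Mylip (-0.0126 to 0.10).

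Mice with the same replicate number did not deviate together, with correlations of -0.33 to 0.28 and no comparison in which every pair was over 0.1. With the replicate number as a block, 2 calls were lost, Lpcat3 for NAC under the control oligo (-0.27, adjusted p = 0.0506) and Abca1 for lifelong loss against knockdown (0.31, adjusted p = 0.0546), and no other call changed. Scaling also moved the share of higher genes among all calls, for example for the interaction (23.8% to 49% by quantile normalization) and for 7 weeks (56.5% to 37.2% by median centring).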
